A study of Caenorhabditis elegans with 12 samples.

Results

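RNA-seq of whole Caenorhabditis elegans larvae was used to compare *lin-22(icb38)* animals (strain MBA81) with JR667 animals, which served as wild type. Each strain had 3 libraries, so the comparison used 6 of the 12 libraries of the series, chosen by the strain in their labels, and it was run over every transcript counted. Both strains carry wIs51, an integrated array on chromosome V that marks the nuclei of seam cells with GFP and holds a working copy of *unc-119*. The genotype given for MBA81 is *lin-22(icb38)* IV with wIs51 V, and that given for JR667 is unc-119(e2498::Tc1) III with wIs51 V, so the listed genotypes also differ at *unc-119* itself. The icb38 allele came from a mutagenesis screen and is a single line. It removes sequence upstream of *lin-22*, reaches into the last exon of the neighbouring gene *vrp-1* and carries a piece of *mca-3* at the break. All animals were L3 larvae synchronised by bleaching and collected 31 hours after hatching. The other 6 libraries came from *lin-22(ot267)* and *lin-22(ot269)* animals, which carry the marker vtIs1 in place of wIs51. They were used only to estimate the spread and for direct differences of single genes, where allele and marker cannot be told apart. The p-values measure the spread between replicates over all 12 libraries fitted together, not that of the 6 compared libraries alone. The labels do not say that replicates came from separate cultures, so this spread may be technical.

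The gene *lin-22* encodes a basic helix-loop-helix repressor of the Hairy/Enhancer of split family. In the worm's epidermis, seam cells divide in a stem-cell-like manner at each larval stage, and *lin-22* keeps some of them from taking a neuroblast fate. In wild type, one seam lineage on each side makes the postdeirid, a small sensory organ that includes PDE, a ciliated dopaminergic neuron, and PVD, a branched mechanosensory neuron. In *lin-22* mutants more seam lineages make postdeirids. Proneural factors of the Atonal and Achaete-scute families, such as LIN-32 and HLH-14, act on the neuroblast side of this choice.

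Total counts ranged from 57388974 to 78920246 in the *lin-22(icb38)* libraries and from 75108956 to 76424212 in the JR667 libraries. Counts divided by a size factor per library are called normalised counts here. On the first principal component of the 6 libraries, which held 53.4% of the variance, *lin-22(icb38)* lay between 21.8 and 29.9 and JR667 between -35.1 and -18.9. JR667 replicate 1 stood apart on the second component (33.7, against 5.87 or less in the other 5 libraries), and JR667 replicate 3 held the highest levels of the late cuticle, yolk and germline genes described below. Genes that span more DNA were lower in JR667 replicate 1. For the 331 genes over 16000 bp in the WBcel235 gene table, the median deviation from the mean of the 6 libraries was 0.28, 0.16 and 0.08 on the log2 scale in *lin-22(icb38)* replicates 1, 2 and 3, and -0.53, 0.06 and -0.03 in JR667 replicates 1, 2 and 3. Of these long genes 28.4% were higher in *lin-22(icb38)* and 1.51% were lower, against 3.6% and 12.6% of the 4392 genes that span 1000 to 2000 bp. The median span of a list, or its values without a JR667 library, are given where they bear on a result.

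At an adjusted p of at most 0.1, 1508 of 19696 entries (7.66%) were higher in *lin-22(icb38)* than in JR667 and 1684 (8.55%) were lower. The entries are transcripts and repeat families. Counted with 1 transcript for each of 16109 genes, 1137 genes (7.06%) were higher and 1510 (9.37%) were lower, with a median log2 fold change of -0.01 over all genes. These shares are the background for the gene lists. Of the called entries, 500 were lower by at least 2-fold and 223 higher, and 213 were lower by at least 8-fold and 20 higher. More called entries were at 3 counts or fewer in every *lin-22(icb38)* library than in every JR667 library. The filter on low counts kept such entries only through strains where they were higher, and so few counts do not fix the size of a change. Their part in the larger number of strong falls was not tested. The counts of calls depended on single libraries. Without JR667 replicate 3, 880 entries were higher and 882 lower, and without *lin-22(icb38)* replicate 3, 932 were higher and 1068 lower. With JR667 replicates 1 and 3 both left out, an alternative added after the data were seen in which JR667 replicate 2 was assumed to vary like the other groups, 269 entries were higher and 400 lower.

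**Figure D1:**
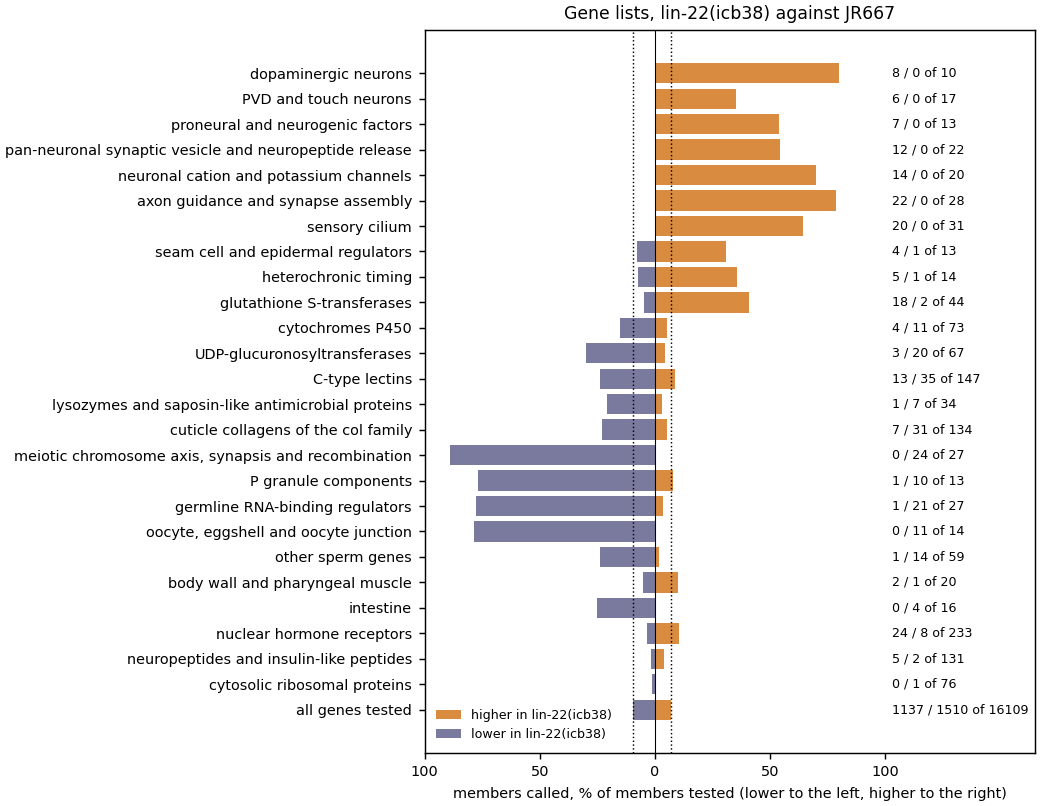
Each bar gives the percentage of a list's tested genes that were called at an adjusted p of at most 0.1, higher in *lin-22(icb38)* to the right and lower to the left, with the counts (higher / lower of tested) at the right edge. Dotted lines mark the 7.06% and 9.37% of all genes, and the bars of the 7 neuronal lists run to the right only while those of meiosis and oocytes run to the left only (major sperm protein genes are left out, since the filter on low counts fixes their direction).

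At the altered locus, *lin-22* had 270, 107 and 198 normalised counts in *lin-22(icb38)*, against 342, 251 and 267 in JR667. The ranges overlapped, and the log2 fold change, -0.57 (standard error 0.275, adjusted p = 0.207), did not pass the test. Transcript Y54G2A.3a of *vrp-1*, part of whose last exon is deleted, had 65.3, 28.6 and 38.9 normalised counts in *lin-22(icb38)*, against 206, 323 and 519 in JR667, with every mutant library below every JR667 library (log2 fold change -2.96, standard error 0.426, adjusted p = 0.000757). It was also low in *lin-22(ot269)*, a change of a single nucleotide upstream of *lin-22*, with 59.5, 74.3 and 113 normalised counts. The log2 difference from *lin-22(ot269)* was -0.88 (adjusted p = 0.212) and that from *lin-22(ot267)* was -2.70 (adjusted p = 0.00087). The part of the deletion in the fall was not tested. The most abundant *mca-3* transcript, Y67D8C.10b, had 19581, 16568 and 15057 normalised counts in *lin-22(icb38)*, against 10214, 14979 and 13855 in JR667. Its rise of 0.39 (standard error 0.133, adjusted p = 0.0751) was kept, among the 6 fits that each left out 1 library, only without *lin-22(icb38)* replicate 3 or JR667 replicate 2, and reads of the inserted piece cannot be told from those of the native gene. The array gene *unc-119* had 8129, 9278 and 9240 normalised counts in *lin-22(icb38)*, against 7451, 7433 and 6507 in JR667, and its difference was not called (log2 fold change 0.32, standard error 0.121, adjusted p = 0.114). In the strains without wIs51 it had 715, 895 and 739 in the *lin-22(ot267)* libraries and 771, 730.1 and 964 in the *lin-22(ot269)* libraries, below every library of both wIs51 strains. The same held for *mec-17*, a tubulin acetyltransferase gene of touch neurons, with 32920, 42470 and 38850 in *lin-22(icb38)* and 31929, 23835 and 26480 in JR667, against 3540, 3541 and 2972 in the *lin-22(ot267)* libraries and 3334, 2731 and 3533 in the *lin-22(ot269)* libraries. *mec-17* was called higher in *lin-22(icb38)* than in JR667 (log2 fold change 0.47, standard error 0.139, adjusted p = 0.0416), a call kept only without *lin-22(icb38)* replicate 1 or JR667 replicate 1. Its log2 difference was 3.51 (adjusted p = 6.02e-09) between *lin-22(icb38)* and *lin-22(ot267)*, so its level moved with the marker.

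Genes of dopaminergic neurons were higher in *lin-22(icb38)*. Of 10 genes of dopamine synthesis, transport and dopaminergic fate, 8 were higher and 0 lower, beside 7.06% and 9.37% of all genes. In this list all 10 had a positive log2 fold change, and the median was 0.86. The dopamine transporter gene *dat-1* had 1359, 1215 and 1553 normalised counts in *lin-22(icb38)*, against 692, 619.5 and 541 in JR667. No libraries overlapped, and the log2 fold change was 1.16 (standard error 0.124, adjusted p = 0.000117). For *cat-2*, the tyrosine hydroxylase gene that carries out the rate-limiting step of dopamine synthesis, the libraries had 459, 476 and 543 normalised counts in *lin-22(icb38)*, against 198, 213 and 187 in JR667, again without overlap (log2 fold change 1.31, standard error 0.161, adjusted p = 0.000304). The mechanosensory channel gene *trp-4* had 486, 612 and 529 normalised counts in *lin-22(icb38)*, against 176, 317 and 289.7 in JR667 (log2 fold change 1.06, standard error 0.191, adjusted p = 0.00321), and the channel gene *asic-1* had 674, 615 and 713 normalised counts in *lin-22(icb38)*, against 243, 434 and 308 in JR667 (log2 fold change 1.02, standard error 0.206, adjusted p = 0.00629). JR667 replicate 1 was the lowest library for both channels. Of the transcription factors that specify dopaminergic neurons, *ast-1*, an ETS factor, rose by 0.81 and *ceh-43*, a Distal-less homologue, by 0.91 on the log2 scale. The vesicular monoamine transporter gene *cat-1* rose by 0.74 (adjusted p = 0.0222) and the autoreceptor gene *dop-2* by 0.46 (adjusted p = 0.0542), the second kept only without *lin-22(icb38)* replicate 1 or JR667 replicate 1. The uncalled members make enzymes that serotonin synthesis also needs, *bas-1* at 0.19 and *cat-4* at 0.23 on the log2 scale. With any single library left out, 7 or 8 members were called, and with JR667 replicate 2 alone as the comparison 4 were called with a median of 0.72.

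Proneural genes were higher in *lin-22(icb38)*, from low counts. *lin-32*, the Atonal homologue of neuroblasts, had 59.5, 72.7 and 139 normalised counts in *lin-22(icb38)*, against 24.9, 13.4 and 7.36 in JR667. The groups did not overlap, and the log2 fold change was 2.56 (standard error 0.647, adjusted p = 0.0216). The call was lost without *lin-22(icb38)* replicate 3 (adjusted p = 0.113). *hlh-14*, of the Achaete-scute family, had 21.4, 47.6 and 34.1 normalised counts in *lin-22(icb38)*, against 8.31, 1.92 and 5.52 in JR667 (log2 fold change 2.67, standard error 0.675, adjusted p = 0.0214), again without overlap. Their partner *hlh-2*, the E/Daughterless homologue with which proneural proteins form dimers, had 654, 769.5 and 805 normalised counts in *lin-22(icb38)*, against 384, 516 and 418 in JR667 (log2 fold change 0.76, standard error 0.144, adjusted p = 0.0042). In all, 7 of 13 tested genes of this list were higher and 0 lower, with a median of 0.76, while 1 listed gene was too low to be tested. The called *hlh-14* was under 10 counts in every JR667 library. The filter on low counts kept it only through strains where it was higher, so its direction was partly fixed by the filter. The zinc-finger gene *ztf-11* rose by 1.10, *egl-43* by 0.98, *sem-4* by 0.56 and the Prospero homologue *pros-1* by 0.78 on the log2 scale. Of these, *egl-43* and *sem-4* also act outside neurons, and *pros-1* acts in glia. *cnd-1*, the NeuroD homologue, was at 1.55 (adjusted p = 0.236) and was not called. The list's genes are short, with a median span of 1699 bp. With JR667 replicate 2 alone, 2 members were called and the median was 0.71.

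**Figure D2:**
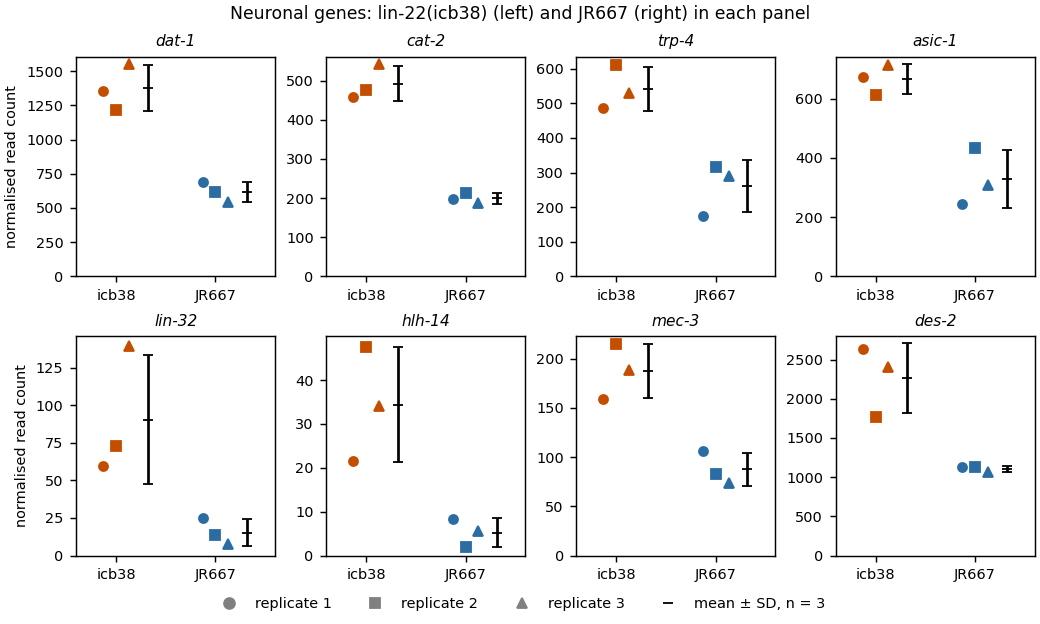
Normalised read counts of 8 neuronal genes in each library, *lin-22(icb38)* at the left of each panel and JR667 at the right, with replicates as symbols and the mean ± SD (n = 3) in black. In each of the 8 panels every *lin-22(icb38)* library lies above every JR667 library, for example 1215 to 1553 against 541 to 692 for *dat-1*. For *hlh-14*, under 10 counts in every JR667 library, the filter on low counts partly fixed this direction.

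Of 17 genes of the branched neuron PVD and of touch neurons, 6 were higher in *lin-22(icb38)* and 0 lower, with a median of 0.44. The LIM homeobox gene *mec-3*, which PVD needs for its branches, had 159, 214 and 189 normalised counts in *lin-22(icb38)*, against 106, 82.5 and 73.6 in JR667 (log2 fold change 1.10, standard error 0.222, adjusted p = 0.00641). The acetylcholine receptor subunit genes *des-2* and *deg-3*, which form 1 operon and are expressed in PVD, both rose. *des-2* had 2631, 1769 and 2399 normalised counts in *lin-22(icb38)*, against 1124, 1126 and 1065 in JR667 (log2 fold change 1.04, standard error 0.124, adjusted p = 0.000272), and *deg-3* had 1885, 1456 and 2111 normalised counts in *lin-22(icb38)*, against 1097, 849.7 and 746 in JR667 (log2 fold change 1.02, standard error 0.151, adjusted p = 0.000907). The dendrite receptor gene *dma-1* had 790.4, 995 and 979.9 normalised counts in *lin-22(icb38)*, against 459.9, 502 and 509 in JR667 (log2 fold change 0.91, standard error 0.125, adjusted p = 0.000587). The other called members were *zag-1*, a zinc-finger homeobox gene (0.76), and *mec-17*, a tubulin acetyltransferase gene of touch neurons (0.47). The touch receptor genes *mec-4*, *mec-7* and *mec-10* were at 0.27, 0.17 and 0.21 on the log2 scale and were not called. The difference in response between PVD genes and touch receptor genes was not tested.

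Against the other *lin-22* mutants, *dat-1* and *lin-32* were higher and *des-2* was not called. The log2 difference of *dat-1* was 0.70 (adjusted p = 0.00185) from *lin-22(ot267)* and 0.88 (adjusted p = 0.000278) from *lin-22(ot269)*. For *cat-2* it was 0.52 (adjusted p = 0.0423) from *lin-22(ot267)* and 0.01 (adjusted p = 0.977) from *lin-22(ot269)*, of which the first passed the test. *des-2* differed by -0.02 (adjusted p = 0.944) from *lin-22(ot267)* and by 0.31 (adjusted p = 0.121) from *lin-22(ot269)*. *lin-32* was above both, by 2.08 (adjusted p = 0.0447) and 1.87 (adjusted p = 0.0653), and *hlh-14* differed by 2.62 (adjusted p = 0.0212) from *lin-22(ot267)* and by 1.19 (adjusted p = 0.245) from *lin-22(ot269)*. By list, 5 of 10 dopaminergic genes were higher than in *lin-22(ot267)*, where 7.73% of all genes were higher and 11.1% lower, and 6 were higher than in *lin-22(ot269)*, where 8.44% of all genes were higher and 10.5% lower. None of the dopaminergic genes was lower than in either. By the same threshold, of the PVD and touch neuron genes, 3 exceeded their level in *lin-22(ot267)* and 3 were below it, while 3 exceeded their level in *lin-22(ot269)* and 3 were below it. Of the 13 proneural and neurogenic genes, 7 exceeded their level in *lin-22(ot267)* and 0 were below it, while 2 exceeded their level in *lin-22(ot269)* and 1 was below it. In these contrasts the allele and the marker change together and cannot be told apart.

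Genes of the sensory cilium, the antenna-like organelle on the dendrite tips of PDE and other sensory neurons, were higher as a group. Of 31 genes, 20 were higher and 0 lower, with a median of 0.64 and a median span of 5274 bp. Transition zone genes, which gate the base of the cilium, were among those called. *ccep-290* had 309.9, 485 and 437 normalised counts in *lin-22(icb38)*, against 95.1, 121 and 170.1 in JR667 (log2 fold change 1.67, standard error 0.22, adjusted p = 0.000495), and *mks-5* had 367, 409.8 and 386 normalised counts in *lin-22(icb38)*, against 162, 145 and 153 in JR667 (log2 fold change 1.34, standard error 0.155, adjusted p = 0.000217). The groups did not overlap for either gene. *nphp-1* and *mks-6*, also of the transition zone, rose by 1.47 and 1.15 on the log2 scale (adjusted p = 0.0149 and 0.00445). The dynein gene *che-3*, the motor of retrograde intraflagellar transport, had 2111, 1563 and 1353 normalised counts in *lin-22(icb38)*, against 771, 878 and 902 in JR667 (log2 fold change 0.98, standard error 0.161, adjusted p = 0.00172). Called genes of the transport particles included *ifta-1* (0.86), *che-11* (0.85), *che-2* (0.94), *osm-1* (0.67) and *osm-5* (0.70), and those of the BBSome, a cargo adaptor, all 4 chosen after their values were seen, included *bbs-1* (0.84), *bbs-2* (0.71), *bbs-8* (0.68) and *bbs-9* (0.71). The calls of *bbs-2* and *bbs-8* were kept without *lin-22(icb38)* replicate 1 or JR667 replicate 1 and without JR667 replicate 1 only. *nphp-1*, *mks-6*, *che-2*, *osm-1* and *osm-5* were also chosen after their values were seen. The kinesin subunit gene *klp-11* rose by 0.54 and its partner *kap-1* was at 0.00 (adjusted p = 0.995). *daf-19*, the RFX factor that switches on ciliary genes, was at 0.26 (adjusted p = 0.238). Each fit that left out 1 library called 14 to 20 members, and the fit against JR667 replicate 2 alone called 9 with a median of 0.60.

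Genes of general neuronal function were also higher, and many of them are long. In axon guidance and synapse assembly, 22 of 28 genes were higher and 0 lower (median 0.54, median span 13314 bp). *fmi-1*, a Flamingo cadherin, had 3741, 4374 and 4077 normalised counts in *lin-22(icb38)*, against 1185, 1719 and 1534 in JR667 (log2 fold change 1.46, standard error 0.138, adjusted p = 3.80e-05). The Slit gene *slt-1* had 4271, 4525 and 4676 normalised counts in *lin-22(icb38)*, against 2410, 2724 and 2532 in JR667 (log2 fold change 0.81, standard error 0.107, adjusted p = 0.000495), and the secreted synapse organiser *madd-4* had 2948, 3410 and 3102 normalised counts in *lin-22(icb38)*, against 1845, 2031 and 1846 in JR667 (log2 fold change 0.72, standard error 0.104, adjusted p = 0.000757). The neurexin gene *nrx-1* had 1838, 1993 and 1907 normalised counts in *lin-22(icb38)*, against 772, 1264 and 1049 in JR667. For these 4 genes JR667 replicate 1 was the lowest library. Among cation and potassium channels 14 of 20 were higher and 0 lower (median 0.61, median span 13664 bp). They included *kvs-5* (0.65), *egl-23* (0.66) and the degenerin gene *unc-8* (0.85), and the sodium leak channel gene *unc-77* (0.92) with *unc-79* (0.92) and *unc-80* (0.81), which act with it. Among genes of synaptic vesicle and neuropeptide release, 12 of 22 were higher and 0 lower (median 0.43). *unc-41*, a clathrin adaptor of vesicle recycling, had 4167, 4167 and 4177 normalised counts in *lin-22(icb38)*, against 1870, 2652 and 2497 in JR667 (log2 fold change 0.83, standard error 0.12, adjusted p = 0.000757), and the rabphilin homologue *rbf-1* had 654, 639.6 and 662 normalised counts in *lin-22(icb38)*, against 272, 424 and 321 in JR667 (log2 fold change 0.94, standard error 0.152, adjusted p = 0.00151).

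Without JR667 replicate 1, the library with low counts of long genes, 19 of 28 axon guidance genes, 15 of 20 channel genes and 14 of 22 release genes were called, and their medians were 0.40, 0.54 and 0.37. Against JR667 replicate 2 alone the called members numbered 7, 6 and 4. Over all genes of more than 16000 bp the median log2 fold change was 0.30 in the full fit and 0.15 without JR667 replicate 1, and over genes of 8000 to 16000 bp it was 0.20 and 0.08. The part of gene length in these rises was not tested. Small core genes of the synapse, *snb-1* (synaptobrevin) at -0.02, *unc-64* (syntaxin) at 0.10 and *rab-3* at 0.31 on the log2 scale, were not called. Of 131 neuropeptide and insulin-like genes tested, 5 were higher (3.82%) and 2 lower (1.53%) with a median of 0.10. Both shares were below the 7.06% and 9.37% of all genes. The higher ones numbered 19 without JR667 replicate 1 and 2 without *lin-22(icb38)* replicate 3. *nlp-29*, an antimicrobial peptide gene of the epidermis and not a neuronal signal, had 7060, 5514 and 6140 normalised counts in *lin-22(icb38)*, against 4655, 3357 and 3076 in JR667 (log2 fold change 0.76, standard error 0.148, adjusted p = 0.00536).

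Outside these lists, 3 families of genes of sensory and peptide signalling are given as examples with called members in 1 direction only. Other name families had this too, such as lgc with 4 of 52 and acr with 3 of 21 genes higher and 0 lower. These are 7.69% and 14.3%, beside 7.06% of all genes, so the lgc share was near the background. For the gcy, npr and dyf families below, the shares were 26.7%, 20% and 50%. Of 30 gcy genes tested, which encode guanylate cyclases, 8 were higher and 0 lower, among them *gcy-33* (1.10), which oxygen- and carbon dioxide-sensing neurons express, and *gcy-9* (0.99), the carbon dioxide receptor gene. Of 45 npr genes for neuropeptide receptors, 9 were higher and 0 lower. Of 12 dyf genes, named for defective dye filling of sensory neurons, 6 were higher and 0 lower, with *dyf-7*, which anchors dendrite tips, at 1.37 on the log2 scale (adjusted p = 0.043). These families were picked after their counts were seen, from 167 name families with at least 10 tested genes, and so were the 3 genes named. Families of chemoreceptor genes had few calls or none, with 0 of 59 str, 0 of 34 srx, 0 of 27 sre and 0 of 25 srd genes called, and 0 higher and 1 lower of 62 srh genes. Other peptide receptor genes were also rarely called, 1 higher of 20 frpr genes and 0 of 11 dmsr genes. The calls were kept without *lin-22(icb38)* replicate 1 or JR667 replicate 2 for *gcy-9* and without *lin-22(icb38)* replicate 1, JR667 replicate 1 or JR667 replicate 2 for *dyf-7*, and for *gcy-33* without each of the 6 libraries. Among genes of glia, 2 of 8 were higher and 0 lower, and 2 were lower without JR667 replicate 3. *ram-5*, a gene of ray structural cells, had 459, 536 and 403 normalised counts in *lin-22(icb38)*, against 207, 215 and 244 in JR667 (log2 fold change 1.07, standard error 0.157, adjusted p = 0.000853), and *kcc-3*, a transporter gene of sheath glia, rose by 0.50 on the log2 scale.

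**Figure D3:**
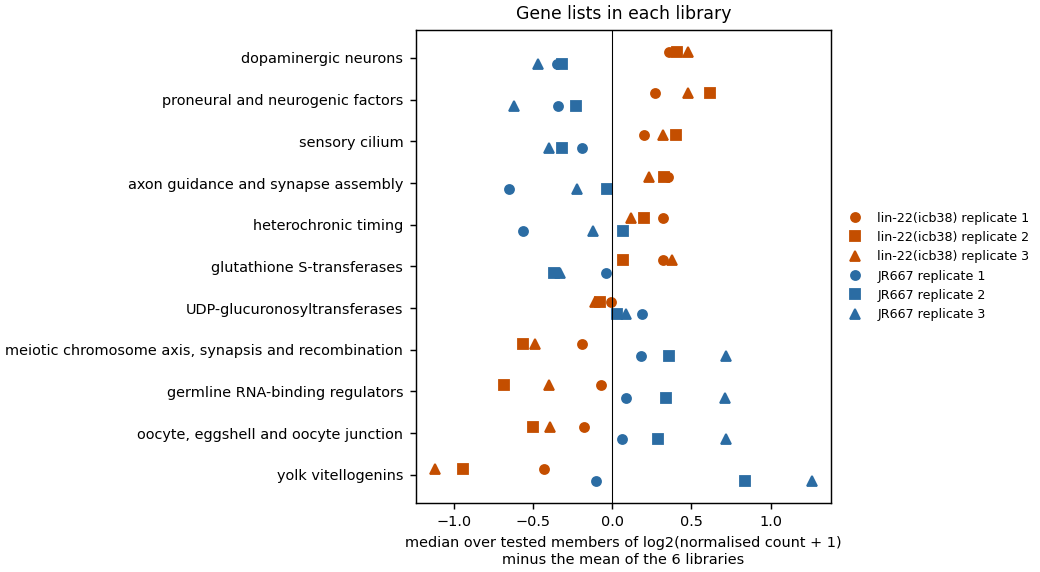
For 11 gene lists, the median over tested members of log2(normalised count + 1) minus the mean of the 6 libraries is shown for each library, *lin-22(icb38)* above JR667 within each list. The dopaminergic list lies at 0.36 to 0.48 in *lin-22(icb38)* and at -0.47 to -0.32 in JR667, and the meiosis list lies at 0.18 to 0.72 in JR667.

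Genes that time larval development differed in both directions. Of 14 heterochronic genes, 5 were higher and 1 lower, with a median of 0.37 and a median span of 7235 bp. *lin-41*, which is shut off by *let-7* in the last larval stage, had 9504, 8237 and 8248 normalised counts in *lin-22(icb38)*, against 3636, 4520 and 2758 in JR667 (log2 fold change 1.25, standard error 0.157, adjusted p = 0.000355). *hbl-1*, a Hunchback-like factor of early stages, had 1303, 1120 and 1056 normalised counts in *lin-22(icb38)*, against 461, 792 and 583 in JR667 (log2 fold change 0.92, standard error 0.161, adjusted p = 0.00258). The nuclear receptor gene *daf-12* had 3321, 3248 and 3103 normalised counts in *lin-22(icb38)*, against 1463, 1934 and 1409 in JR667 (log2 fold change 1.01, standard error 0.125, adjusted p = 0.000322), and *lin-14*, whose product specifies the first larval stage, rose by 0.59. The called member in the other direction was *lin-29*, the zinc-finger factor that brings on adult epidermal fates, with 1320, 854 and 992 normalised counts in *lin-22(icb38)*, against 1249, 1652 and 1400 in JR667 (log2 fold change -0.44, standard error 0.149, adjusted p = 0.0734). Its groups overlapped, and the call was kept only without *lin-22(icb38)* replicate 1 or JR667 replicate 1. Without JR667 replicate 1 the median was 0.19, with 5 members higher and 2 lower. Without JR667 replicate 2, 9 members were higher and 0 lower, and against JR667 replicate 2 alone 2 were. *lin-41* was near its level in *lin-22(ot269)*, with a log2 difference of 0.03 (adjusted p = 0.923).

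Among regulators of seam cells and the epidermis, 4 of 13 were higher and 1 lower. The GATA factor gene *egl-18*, a Wnt target that keeps seam fate, had 1535, 1525 and 1686 normalised counts in *lin-22(icb38)*, against 912, 1037 and 818 in JR667 (log2 fold change 0.78, standard error 0.111, adjusted p = 0.000725). *ceh-16*, the Engrailed homologue of the seam, had 118, 167 and 207 normalised counts in *lin-22(icb38)*, against 109.9, 80.6 and 28.5 in JR667 (log2 fold change 1.17, standard error 0.396, adjusted p = 0.0738) and was kept only without *lin-22(icb38)* replicate 1 or JR667 replicate 1. The fusogen gene *aff-1*, which acts in the last fusions of seam cells, had 424, 464 and 408 normalised counts in *lin-22(icb38)*, against 527, 681 and 1016 in JR667 (log2 fold change -0.78, standard error 0.255, adjusted p = 0.0657), with its highest value in JR667 replicate 3. Without that library 2 members were higher and 0 lower. The Runx gene *rnt-1* and its partner *bro-1*, which promote seam divisions, were at 0.56 and 0.35 and were not called. Of 9 Hox genes and cofactors, 2 were higher, *lin-39* at 0.33 (kept only without *lin-22(icb38)* replicate 1 or JR667 replicate 1) and *unc-62* at 0.39 (kept only without *lin-22(icb38)* replicate 1 or JR667 replicate 2). No member of that list was called without *lin-22(icb38)* replicate 2 or 3 or JR667 replicate 3. *mab-5*, the Hox gene of the posterior seam, was at -0.10 (adjusted p = 0.672).

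The 10 largest falls were in collagen genes and in genes most of which are known only by their sequence name. D1086.10 (transcript D1086.10c) and F37A4.5 were at 0 in all 3 *lin-22(icb38)* libraries. In JR667 they had 86.8, 176 and 345 and 59.1, 132 and 378 normalised counts. Set against a floor of 3 counts per *lin-22(icb38)* library, they were at least 64.5-fold and 60.5-fold lower. *gtnt-17*, Y113G7C.1 and *ant-1.4*, the last a mitochondrial ADP/ATP carrier gene, had 3 counts or fewer in each *lin-22(icb38)* library and were at least 92.1-fold, 59.4-fold and 50.1-fold lower. *bli-6*, a collagen gene for the struts of the adult cuticle, had 11.7, 14.3 and 5.84 normalised counts in *lin-22(icb38)*, against 678, 2156 and 4205 in JR667 (log2 fold change -7.80, standard error 1.11, adjusted p = 0.000734). *col-175* had 5.85, 2.38 and 1.95 normalised counts in *lin-22(icb38)*, against 466, 1492 and 3119 in JR667 (log2 fold change -8.89, standard error 1.1, adjusted p = 0.000332), and *col-63* had 5.85, 4.76 and 11.7 normalised counts in *lin-22(icb38)*, against 27.7, 485 and 1659 in JR667 (log2 fold change -6.56, standard error 1.09, adjusted p = 0.00186). Y51H7C.1 had 3.9, 0 and 0 normalised counts in *lin-22(icb38)*, against 40.6, 267 and 469.9 in JR667 (adjusted p = 0.00124). Y47G6A.15 had 114, 78.6 and 54.5 normalised counts in *lin-22(icb38)*, against 2598, 5429 and 10796 in JR667 (log2 fold change -6.25, standard error 0.81, adjusted p = 0.000461). For each of these 10 genes the JR667 libraries themselves were far apart, lowest in replicate 1 and highest in replicate 3. *col-175*, Y51H7C.1 and the genes at 3 counts or fewer were under 10 counts in every *lin-22(icb38)* library. The filter on low counts kept them only through strains where they were higher, so their direction was partly fixed by the filter. Such low counts do not fix the size of their falls. In *lin-22(ot269)*, *bli-6* had 14.9, 1.93 and 17.8 and *col-175* had 8.51, 1.93 and 0, with log2 differences of -0.13 (adjusted p = 0.973) and 0.04 (adjusted p = 0.995). F37A4.5, at 0 in *lin-22(icb38)*, had 38.3, 131 and 108 normalised counts in *lin-22(ot269)*, with an adjusted p of 0.00103 for the difference.

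More col collagens were lower than higher. Of 134 tested of 158 listed, 31 were lower and 7 higher, with a median of -0.18. This is 23.1% and 5.22%, beside 9.37% and 7.06% of all genes. Of the 134, 7 were under 10 counts in every *lin-22(icb38)* library and 1 in every JR667 library. The filter on low counts kept these only through strains where they were higher, so their direction was partly fixed by the filter. For *col-38*, *col-110* and *col-138* every mutant library was below every JR667 library, of which replicate 3 was the highest. *col-38* had 353, 200.1 and 176 normalised counts in *lin-22(icb38)*, against 1326, 3317 and 6565 in JR667 (log2 fold change -3.94, standard error 0.449, adjusted p = 0.000191), and *col-110* had 134, 96.5 and 51.6 normalised counts in *lin-22(icb38)*, against 969.6, 1512 and 2349 in JR667 (log2 fold change -4.10, standard error 0.329, adjusted p = 1.01e-05). The strut genes *bli-1* and *bli-2*, chosen after their values were seen, had 175.4, 114 and 112 normalised counts in *lin-22(icb38)*, against 1486, 5407 and 10298 in JR667 for *bli-1* and 177, 90.5 and 137 normalised counts in *lin-22(icb38)*, against 1659, 3666 and 6875 in JR667 for *bli-2*. The adult collagen gene *col-19*, also chosen after its values were seen, was low in both strains, with 14.6, 14.3 and 1.95 normalised counts in *lin-22(icb38)*, against 11.1, 11.5 and 15.6 in JR667, and was not called (log2 fold change -0.32). The 6 annular furrow collagens, made early in each cuticle cycle, had 0 higher and 0 lower and a median of -0.05, and of 14 moulting genes 0 were higher and 1 lower. The moulting genes called higher numbered 4 without JR667 replicate 2, and the lower ones 0 without JR667 replicate 3. Without *lin-22(icb38)* replicate 2, 26 col genes were lower and 3 higher. Without JR667 replicate 3, 19 col genes were lower and 1 higher. The stage of the animals in each library was not measured beyond the hour of collection.

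Most tested members of 4 germline lists were lower in *lin-22(icb38)*. Of 27 genes of meiotic chromosomes, 24 were lower and 0 higher (median -0.76). The synaptonemal complex gene *syp-1* had 624, 629 and 651 normalised counts in *lin-22(icb38)*, against 1302, 1380 and 2015 in JR667 (log2 fold change -1.30, standard error 0.172, adjusted p = 0.000499). The pairing regulator gene *prom-1* had 209.5, 128 and 152 normalised counts in *lin-22(icb38)*, against 459, 531 and 815 in JR667 (log2 fold change -1.88, standard error 0.271, adjusted p = 0.000766), and the axis genes *htp-1* and *him-3* fell by 1.56 and 1.51 on the log2 scale. Among germline RNA-binding regulators 21 of 27 were lower and 1 higher (median -0.79). *cpb-1*, a CPEB protein gene needed for spermatogenesis, had 136, 92.9 and 91.5 normalised counts in *lin-22(icb38)*, against 284, 689 and 1244 in JR667 (log2 fold change -2.78, standard error 0.417, adjusted p = 0.000966). *fog-3*, which commits germ cells to the sperm fate, had 454, 374 and 384 normalised counts in *lin-22(icb38)*, against 890.2, 957 and 1250 in JR667 (log2 fold change -1.35, standard error 0.15, adjusted p = 0.000163). The gene that rose in this list was *mex-3*, at 0.36 on the log2 scale (adjusted p = 0.0657, kept only without *lin-22(icb38)* replicate 1 or JR667 replicate 2). Of 13 P granule genes tested, 10 were lower and 1 higher. *pgl-2* had 1039, 655 and 809.6 normalised counts in *lin-22(icb38)*, against 1754, 1733 and 2146 in JR667 (log2 fold change -1.17, standard error 0.143, adjusted p = 0.000301), while *meg-3* rose by 1.06. Of 14 oocyte and eggshell genes tested 11 were lower and 0 higher (median -0.66), with *cpg-2*, an eggshell proteoglycan gene, at -1.17 on the log2 scale.

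The size of the germline falls depended on the JR667 library. The median deviation of the meiotic list from the mean of the 6 libraries was -0.19, -0.56 and -0.49 on the log2 scale in *lin-22(icb38)*, against 0.18, 0.36 and 0.72 in JR667. Without JR667 replicate 3, 15 of 27 meiotic, 13 of 27 RNA-binding, 4 of 13 P granule and 4 of 14 oocyte genes were lower, and the medians were -0.59, -0.60, -0.42 and -0.52. Leaving out *lin-22(icb38)* replicate 2 or 3 also left 4 P granule genes, and leaving out replicate 3 left 7 oocyte genes. Against JR667 replicate 2 alone, 10, 13, 7 and 2 were lower. The same list was set against the other *lin-22* mutants. Of 27 meiotic genes, 26 were lower than in *lin-22(ot267)* and 22 were lower than in *lin-22(ot269)*, with medians of -0.98 and -0.69. In whole animals, fewer germ cells and less RNA per germ cell cannot be told apart.

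Some sperm and yolk genes were also lower in *lin-22(icb38)*. Of 30 major sperm protein genes, 17 had counts to be tested. Of these, 16 were under 10 counts in every *lin-22(icb38)* library and 0 in every JR667 library, so that the filter on low counts fixed their direction, and no count of calls is given. Over all 30 genes, tested or not, the normalised counts summed to 88.7, 51.2 and 56.4 in *lin-22(icb38)*, against 322, 569.6 and 1147 in JR667. *msp-36* was at 0 in the 3 *lin-22(icb38)* libraries and had 9.23, 28.8 and 55.2 in JR667, which makes it at least 9.89-fold lower on a floor of 3 counts. These genes are near-identical copies, so reads may be split or shared among them. The sum over all 30 was 309, 192 and 144 in the *lin-22(ot267)* libraries. In those of *lin-22(ot269)* it was 38.3, 82 and 64.2. Of 59 other sperm genes tested, among 86 listed, 14 were lower and 1 higher, such as *spe-5* (-0.91) and *spe-4* (-1.09), and 7 were lower without JR667 replicate 3. Of these 59, 4 were under 10 counts in every *lin-22(icb38)* library and 1 in every JR667 library. For them the filter on low counts partly fixed the direction. Among the 6 vitellogenin genes, whose yolk proteins the adult intestine makes, 3 were lower. *vit-6* had 12.7, 21.4 and 7.78 normalised counts in *lin-22(icb38)*, against 48, 289.6 and 548 in JR667 (log2 fold change -4.42, standard error 1.04, adjusted p = 0.0146), *vit-1* had 383, 249 and 311 normalised counts in *lin-22(icb38)*, against 526, 1331 and 1549 in JR667 (log2 fold change -1.85, standard error 0.337, adjusted p = 0.00328), and *vit-3*, *vit-4* and *vit-5* were not called. In the somatic gonad list *fkh-6*, a forkhead gene of the gonad, had 44.8, 66.7 and 50.6 normalised counts in *lin-22(icb38)*, against 130.2, 295 and 574 in JR667 (log2 fold change -2.63, standard error 0.493, adjusted p = 0.0039), and the sheath innexin gene *inx-8* fell by 1.84 on the log2 scale. *ceh-18* and *tra-1* rose by 0.45 and 0.64.

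**Figure D4:**
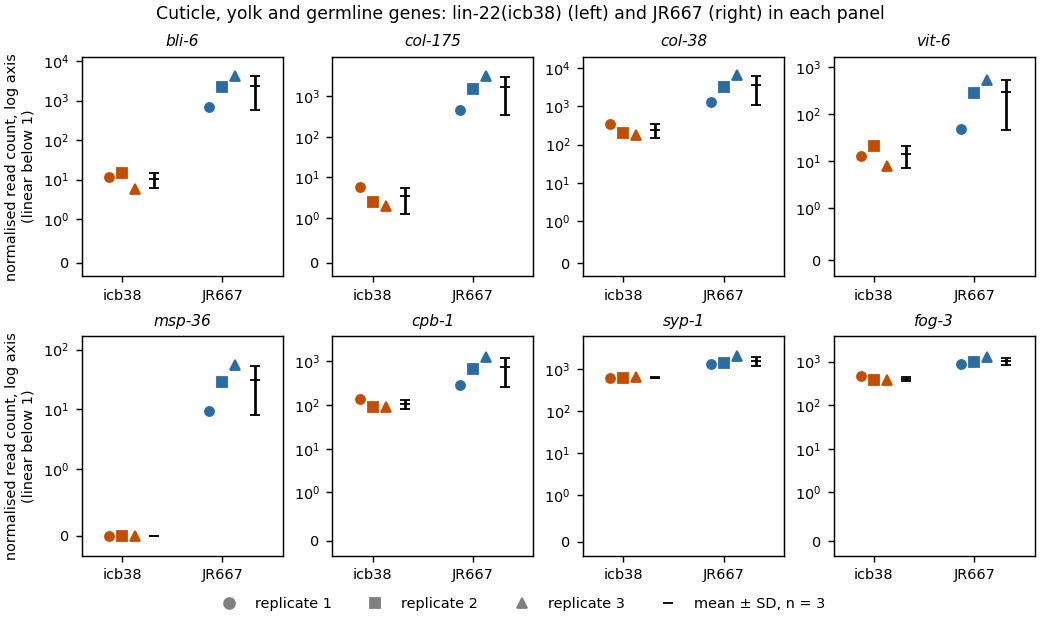
Normalised read counts of 8 cuticle, yolk and germline genes in each library on a log axis that is linear below 1, *lin-22(icb38)* at the left of each panel and JR667 at the right, with the mean ± SD (n = 3) in black. All *lin-22(icb38)* libraries lie below all JR667 libraries, and in each panel JR667 replicate 3 is the highest library, as for *bli-6* (5.84 to 14.3 in *lin-22(icb38)*, against 678 to 4205 in JR667). For *col-175* and *msp-36*, under 10 counts in every *lin-22(icb38)* library, the filter on low counts partly fixed this direction.

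Among enzymes of detoxification, glutathione S-transferases were higher and UDP-glucuronosyltransferases lower. Of 44 glutathione S-transferase genes, 18 were higher and 2 lower, with a median of 0.56 and a short median span of 1260 bp. *gst-4*, a standard reporter of the SKN-1 oxidative stress response, had 8678, 7308 and 6291 normalised counts in *lin-22(icb38)*, against 1644, 1590 and 1932 in JR667 (log2 fold change 2.11, standard error 0.142, adjusted p = 1.81e-06). *gst-12* had 2092, 1967 and 2437 normalised counts in *lin-22(icb38)*, against 780.3, 542 and 264 in JR667 (log2 fold change 2.03, standard error 0.272, adjusted p = 0.000512), and *gst-16*, counted from the same sequenced clone, had 286, 317 and 470 normalised counts in *lin-22(icb38)*, against 121.9, 94.9 and 58.9 in JR667 (log2 fold change 1.96, standard error 0.263, adjusted p = 0.000512). The abundant *gst-7* had 13201, 14446 and 15751 normalised counts in *lin-22(icb38)*, against 8621, 6637 and 6900 in JR667 (log2 fold change 0.97, standard error 0.132, adjusted p = 0.000552). For these 4 genes every *lin-22(icb38)* library lay above every JR667 library. The lower genes were *gst-26* (-0.39) and *gst-27* (-0.47). The called rises held at 13 or more in each fit that left out 1 library, and 13 were called against JR667 replicate 2 alone. *gst-4* also differed from the other mutants, by 2.15 (adjusted p = 2.74e-07) from *lin-22(ot267)* and by 1.82 (adjusted p = 9.63e-07) from *lin-22(ot269)*.

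Of 67 UDP-glucuronosyltransferase genes, which attach sugars to toxins and hormones, 20 were lower and 3 higher (median -0.16). *ugt-53* had 330.4, 162 and 222 normalised counts in *lin-22(icb38)*, against 704, 824 and 900.2 in JR667 (log2 fold change -1.76, standard error 0.236, adjusted p = 0.000512), and *ugt-47* had 2557, 2354 and 2455 normalised counts in *lin-22(icb38)*, against 4237, 4386 and 6463 in JR667 (log2 fold change -1.03, standard error 0.153, adjusted p = 0.000907). The members that rose were *ugt-31* (0.61, kept only without *lin-22(icb38)* replicate 2 or JR667 replicate 1), *ugt-34* (1.77) and *ugt-48* (0.45). The number of lower genes was 10 without JR667 replicate 3, 12 without *lin-22(icb38)* replicate 1 and 11 without *lin-22(icb38)* replicate 3, and 5 were higher without JR667 replicate 1. Among 73 cytochrome P450 genes tested, 11 were lower and 4 higher, which is 15.1% and 5.48% beside 9.37% and 7.06% of all genes. *cyp-14A2* had 230, 273 and 257 normalised counts in *lin-22(icb38)*, against 667, 704 and 609.7 in JR667 (log2 fold change -1.38, standard error 0.2, adjusted p = 0.000774). The lower genes included *cyp-35A3* at -0.67 and *cyp-35A4* at -0.48 on the log2 scale, of a group known to be induced by xenobiotics. Without JR667 replicate 3, 5 were lower and 0 higher, and without *lin-22(icb38)* replicates 1 and 3 in turn, 7 and 6 were lower.

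Fatty acid desaturase genes were called in both directions. *fat-7*, the stearoyl-CoA desaturase gene, had 585, 387 and 565 normalised counts in *lin-22(icb38)*, against 2354, 2502 and 1821 in JR667, with no overlap (log2 fold change -2.12, standard error 0.192, adjusted p = 3.27e-05). *fat-5*, the palmitoyl-CoA desaturase gene, moved the other way, with 926, 481 and 1261 normalised counts in *lin-22(icb38)*, against 306, 397 and 213 in JR667 (log2 fold change 1.55, standard error 0.284, adjusted p = 0.00349). The fatty acid synthase gene *fasn-1* rose by 0.76, and the desaturase and elongase genes *fat-3* and *elo-1* of the polyunsaturated pathway fell by 0.55 and 0.31 on the log2 scale. In all 2 of 17 genes of fatty acid synthesis, desaturation and elongation were higher and 3 lower. This is 11.8% and 17.6%, beside 7.06% and 9.37% of all genes, and rests on few genes. The genes above are thus single cases. Without JR667 replicate 2, 5 were higher and 3 lower.

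More lectin and lysozyme genes were called lower than higher. Of 258 C-type lectin genes 147 could be tested, of which 35 were lower and 13 higher (median -0.16). This is 23.8% and 8.84%, beside 9.37% and 7.06% of all genes, so the share of rises was near the background. Of the 147, 7 were under 10 counts in every *lin-22(icb38)* library and 4 in every JR667 library. For them the filter on low counts partly fixed the direction. *clec-209* had 7726, 11165 and 8607 normalised counts in *lin-22(icb38)*, against 22682, 25691 and 32112 in JR667 (log2 fold change -1.55, standard error 0.152, adjusted p = 5.39e-05). Both strains were above the strains without wIs51, in which *clec-209* had 2343, 2448 and 1974 in the *lin-22(ot267)* libraries and 2147, 1946 and 2096 in the *lin-22(ot269)* libraries. *clec-206* had 1210, 743 and 1329 normalised counts in *lin-22(icb38)*, against 1896, 2713 and 3183 in JR667 (log2 fold change -1.25, standard error 0.203, adjusted p = 0.00164). Rises included *clec-3*, with 284, 449 and 339.6 normalised counts in *lin-22(icb38)*, against 75.7, 66.2 and 99.3 in JR667 (log2 fold change 2.15, standard error 0.256, adjusted p = 0.000272), and *clec-17*, with 640.3, 873 and 878 normalised counts in *lin-22(icb38)*, against 279, 268 and 145 in JR667 (log2 fold change 1.79, standard error 0.219, adjusted p = 0.000301). Without JR667 replicate 3, 22 were lower and 7 higher, and without *lin-22(icb38)* replicate 3, 23 were lower. Of 34 lysozyme and saposin-like genes tested, 7 were lower and 1 higher, and 4 were lower without *lin-22(icb38)* replicate 1 or replicate 3. The lysozyme gene *lys-4* had 12384, 10652 and 11841 normalised counts in *lin-22(icb38)*, against 20053, 17487 and 19832 in JR667 (log2 fold change -0.72, standard error 0.1, adjusted p = 0.000649). *lys-7*, a lysozyme gene induced by infection, had 3820, 5111 and 5023 normalised counts in *lin-22(icb38)*, against 2267, 2631 and 2375 in JR667 (log2 fold change 0.94, standard error 0.153, adjusted p = 0.00164) and was the member that rose. Against the other mutants its log2 difference was 0.12 (adjusted p = 0.671) from *lin-22(ot267)* and -2.10 (adjusted p = 6.90e-07) from *lin-22(ot269)*.

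**Figure D5:**
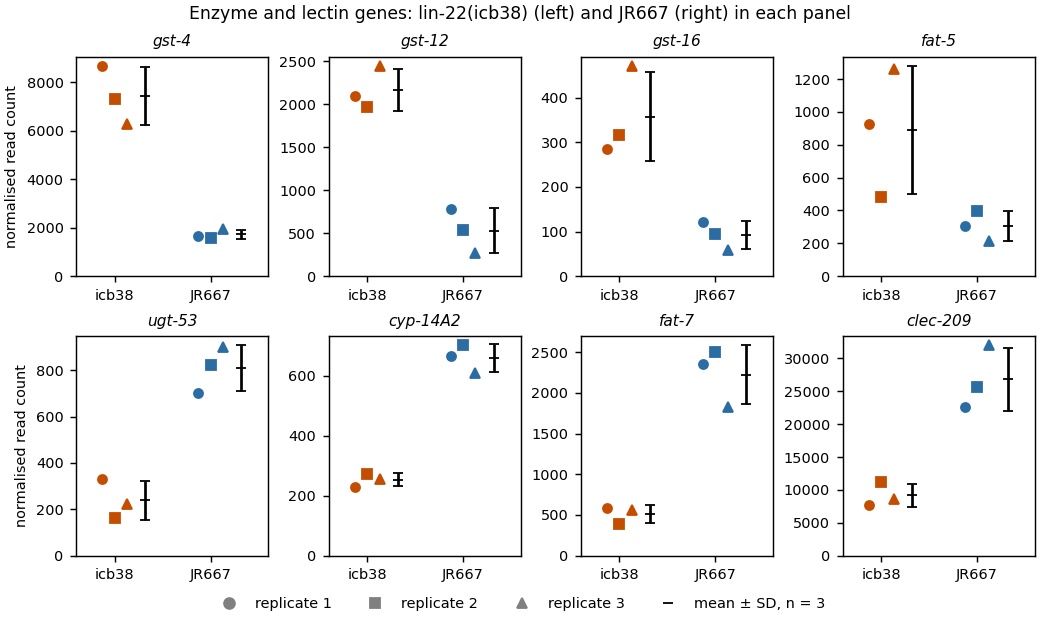
Normalised read counts of 8 enzyme and lectin genes in each library, *lin-22(icb38)* at the left of each panel and JR667 at the right, with replicates as symbols and the mean ± SD (n = 3) in black. The *lin-22(icb38)* libraries lie above all JR667 libraries for *gst-4*, *gst-12*, *gst-16* and *fat-5* and below all of them for *ugt-53*, *cyp-14A2*, *fat-7* and *clec-209*.

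In muscle, 2 of 20 genes were higher and 1 lower (median 0.06), which is 10% and 5% beside 7.06% and 9.37% of all genes. The myosin heavy chain gene *myo-3* had 113648, 72163 and 69454 normalised counts in *lin-22(icb38)*, against 40933, 55407 and 51136 in JR667 (log2 fold change 0.79, standard error 0.172, adjusted p = 0.0097), with its highest count in *lin-22(icb38)* replicate 1 and its lowest in JR667 replicate 1. In the intestine 0 of 16 were higher and 4 lower, which is 25% beside the 9.37% of all genes (median -0.06), such as the proton exchanger gene *nhx-2* (-0.47) and the acid phosphatase gene *pho-1* (-0.42). Of 8 excretory cell and coelomocyte genes, 1 was higher, *pgp-12* at 0.53, and none without *lin-22(icb38)* replicate 1 or JR667 replicate 1. Among 76 cytosolic ribosomal protein genes 0 were higher and 1 lower, namely *rpl-11.1*, a paralogue known from the germline, with 18868, 17455 and 20468 normalised counts in *lin-22(icb38)*, against 33373, 31356 and 41252 in JR667 (log2 fold change -0.90, standard error 0.117, adjusted p = 0.000461). Of 15 heat shock genes 1 was higher, the mitochondrial chaperone gene *hsp-6* at 0.47, and none without *lin-22(icb38)* replicate 1. Among 233 nuclear hormone receptor genes tested 24 were higher and 8 lower, which is 10.3% and 3.43% beside 7.06% and 9.37% of all genes. Without JR667 replicate 3 or *lin-22(icb38)* replicate 3 the higher ones numbered 11 and 10, and the lower ones 3 and 3. Of the 233, 8 were under 10 counts in every JR667 library and 3 in every *lin-22(icb38)* library. For them the filter on low counts partly fixed the direction. *nhr-3* had 2859, 2157 and 3631 normalised counts in *lin-22(icb38)*, against 1120, 974 and 880 in JR667 (log2 fold change 1.54, standard error 0.161, adjusted p = 9.83e-05).

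The genes with the largest rises were mostly unnamed. C38D9.2 had 3612, 1741 and 2568 normalised counts in *lin-22(icb38)*, against 48, 97.8 and 97.5 in JR667 (log2 fold change 5.03, standard error 0.29, adjusted p = 6.42e-07). It also exceeded the other mutants, by 1.92 (adjusted p = 0.000206) from *lin-22(ot267)* and 2.06 (adjusted p = 6.31e-05) from *lin-22(ot269)*. The rise of C38D9.2 was not particular to *lin-22(icb38)*. Against JR667 its log2 fold change was 3.11 (adjusted p = 1.09e-05) in *lin-22(ot267)* and 2.96 (adjusted p = 6.47e-06) in *lin-22(ot269)*. C07G1.7 had 361, 348 and 296 normalised counts in *lin-22(icb38)*, against 11.1, 30.7 and 19.3 in JR667 (log2 fold change 4.04, standard error 0.434, adjusted p = 0.000121), and its log2 difference was 4.34 (adjusted p = 4.57e-05) from *lin-22(ot267)* and 4.82 (adjusted p = 8.35e-06) from *lin-22(ot269)*. F15D4.5 had 1539, 846 and 1053 normalised counts in *lin-22(icb38)*, against 120, 93 and 178 in JR667 (log2 fold change 3.13, standard error 0.259, adjusted p = 1.31e-05), and F57G4.5 had 666, 748 and 762 normalised counts in *lin-22(icb38)*, against 123, 146 and 112 in JR667 (log2 fold change 2.51, standard error 0.234, adjusted p = 3.46e-05). All 4 were above both other mutants as well as JR667. The remaining 6 of the 10 were F14F8.8 (3.48), C15A11.4 (2.65), W03B1.6 (2.59), *oac-51* (2.48), R12G8.1 (2.48) and F40D4.13 (2.43). W03B1.6 and *oac-51*, an acyltransferase gene counted as W03B1.7, come from the same sequenced clone, as does W03B1.3, which rose by 2.23 on the log2 scale (adjusted p = 0.0579, kept without *lin-22(icb38)* replicate 1, JR667 replicate 1 or JR667 replicate 2) and was chosen after its values were seen.

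Of 126 repeat families and other sequences tested, 10 were higher and 4 lower, beside 7.66% and 8.55% of all entries. The number of rises was thus near the background, and the entries below are single cases. TURMOIL2, a DNA transposon family, had 2348, 2342 and 2537 normalised counts in *lin-22(icb38)*, against 549, 538 and 633 in JR667 (log2 fold change 2.07, standard error 0.129, adjusted p = 9.71e-07). MIRAGE1 had 366, 243 and 252 normalised counts in *lin-22(icb38)*, against 105, 91.1 and 106 in JR667 (log2 fold change 1.51, standard error 0.228, adjusted p = 0.00103), and Chapaev-2_CE had 379, 342 and 476 normalised counts in *lin-22(icb38)*, against 99.7, 157 and 285 in JR667 (log2 fold change 1.14, standard error 0.272, adjusted p = 0.0156). TURMOIL2 was also above *lin-22(ot267)*, by 1.995 (adjusted p = 2.67e-07), and above *lin-22(ot269)*, by 2.40 (adjusted p = 3.01e-08), but for MIRAGE1 the log2 difference was -0.19 (adjusted p = 0.628) and -0.06 (adjusted p = 0.904). Retrotransposon entries that fell were CER1 (-0.46), LTRCER1 (-0.50) and CER7-I_CE (-0.79), with CER1 and LTRCER1 kept in 3 of 6 and CER7-I_CE in 4 of 6 fits that left out a library, and CER15-I_CE rose by 0.91. An entry called sensor_genome, whose meaning is not given in the sources used here, had 33325, 41989 and 26189 normalised counts in *lin-22(icb38)*, against 12661, 22289 and 21377 in JR667 (log2 fold change 0.85, standard error 0.191, adjusted p = 0.0116), and 4361, 3827 and 3984 in the *lin-22(ot267)* libraries and 4397, 4149 and 4000 in the *lin-22(ot269)* libraries. Reads of a family come from many copies, so these values do not give a position in the genome.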

How the data were processed

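Poly(A)-selected stranded RNA-seq libraries were made from whole L3 larvae. The authors aligned the reads with Bowtie2 and counted them per transcript with bedtools, and the deposited counts are whole numbers. Versions, genome build, annotation and the use of strand in counting are not given in the sources used here. The authors also deposited DESeq-normalised values, a signal in which each count, with 0 set to 1, is divided by 1 factor per library, and these were not used for tests. Isoforms of a gene share reads, and the major sperm protein genes are near-identical copies.

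Of 23953 entries, 19696 passed a filter on low counts (filterByExpr, count minimum 10). The 12 libraries were fitted together with edgeR 4.0.16 in R 4.3.3 (quasi-likelihood test, 1 coefficient per strain, RLE size factors), with Benjamini-Hochberg adjustment over all entries and the study's threshold of 0.1. Each adjusted p in the text is from this test. Standard errors are approximate, as the log2 fold change divided by the root of the F statistic. Differences from *lin-22(ot267)* and *lin-22(ot269)* are contrasts of the same fit. Gene lists used the transcript with the highest mean count per gene and were described by counts and medians. The 36 lists, the members and the comparison were chosen with earlier results of these data known. A list of mitochondrially encoded subunits matched no entry. Gene names and spans came from the WBcel235 gene table, in which 97.4% of tested genes had a span.

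Named genes were those of the altered locus and markers, 4 genes of the PDE lineage, the 10 largest rises and falls among called genes whose strains did not overlap and whose higher strain averaged 100 normalised counts or more, up to 6 called members per list by p, uncalled list members as values, and repeats that met the same rule. Others complete a count of 5 or fewer, or are said to have been chosen after their values were seen. The fit was tested on simulated data. Alternatives were a threshold of 0.05, TMM or total-count scaling, no filter or a stricter one, 1 transcript per gene, a replicate block, the 6 libraries alone, DESeq2 1.42.0 and leaving out each library. A fit without JR667 replicates 1 and 3 was chosen after seeing the data.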

Additional observations from a re-analysis of the deposited data

How the results depend on the processing

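The 3192 calls, 1508 higher and 1684 lower in *lin-22(icb38)* than in JR667, became 2071 (922 higher) at a threshold of 0.05, and 1859 (820 higher and 1039 lower) when only the 6 libraries of both strains were fitted. In the fit of those 6 libraries, 7 dopaminergic, 8 proneural, 17 cilium, 15 axon guidance and 7 release genes were called higher. Called lower in it were 19 meiotic, 17 germline RNA-binding, 4 P granule and 7 oocyte genes. With JR667 replicates 1 and 3 left out together, chosen after seeing the data, 669 were called (269 higher and 400 lower). Leaving out 1 library each gave 1762 to 3492 calls in all, 880 to 1823 higher and 882 to 1732 lower, the fewest calls without JR667 replicate 3, with 2000 (932 higher and 1068 lower) without *lin-22(icb38)* replicate 3. TMM scaling gave 3199 calls, total-count scaling 2991, no filter 3145, at least 10 counts in every library 3016, 1 transcript per gene 2593 and DESeq2 3889. The strict filter left no major sperm protein gene to test. With the replicate number as a replicate block, 2538 entries were called (1186 higher and 1352 lower). Same-numbered libraries had correlations of -0.26, 0.08 and -0.16 in their deviations, and other pairs ranged from -0.29 to 0.31. So few values cannot tell whether the numbers pair the samples.

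Of the fold changes of named genes over all alternatives, 3496 kept direction and side of the threshold, 285 lost and 5 gained the call, and 9 changed sign, all of genes not called. With 1 library left out, *col-19* ranged from -0.67 to 0.18 (without *lin-22(icb38)* replicate 3), *kap-1* from -0.04 to 0.04, *snb-1* from -0.09 to 0.07 and *unc-64* from -0.02 to 0.20. Without JR667 replicates 1 and 3, *kap-1* was at -0.05 and *snb-1* at 0.02. Among direct differences the sign changed for *cat-2* minus *lin-22(ot269)* under TMM scaling (0.00), *col-175* minus *lin-22(ot269)* under DESeq2 (-0.02) and *ugt-14* minus *lin-22(ot267)* under TMM scaling (-0.01). Of 1120 counts of list members, 171 moved by more than 1.5 times. The cause was not tested. With 3 libraries per strain, genes at few counts have wide errors.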
